A study of Mus musculus with 18 samples.

Results

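Calcium and phosphate absorption was followed through 8 genes in ileum cells of 18 mice, and 2 phosphate carriers were the members called between diets. On Western diet (WD), *Slc20a1* rose 1.89-fold and *Slc34a2* fell to 0.546 of its chow level, the latter a call lost in some alternative fits. Another phosphate carrier, *Slc20a2*, the vitamin D receptor and the calcium genes did not pass the test. Called were thus 2 of the 7 genes that could be tested, against 8.51% of all tested genes, and between genotypes 0 of 7 against 0.135%. The 8 genes were *Vdr*, *Cyp24a1*, *Trpv6*, *S100g*, *Atp2b1*, *Slc34a2*, *Slc20a1* and *Slc20a2*. They were picked by name as main genes of intestinal calcium and phosphate transport and of the vitamin D response, with earlier results of these data known. The share called is therefore a description and not a test of the set. Every probe carrying one of these gene names was taken, which gave 12 of 56605 probes and 8 of 37074 gene names on the array. Each gene is described at its brightest probe, meaning the probe with the highest mean over the 18 arrays.

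RNA was hybridised to one-colour microarrays, 1 array per mouse, where each spot shines in proportion to the transcript it captures. The mice formed 3 groups of 6: Pgc1α fl/fl mice on chow (iPGC1afl/fl_CHOW in the labels), Pgc1α fl/fl mice on WD (iPGC1afl/fl_HFD) and iPgc1α-/- mice on WD (iPGC1a-/-_HFD). Every mouse carried the floxed *Ppargc1a* allele on a C57BL6/J background. In iPgc1α-/- mice a Cre recombinase under the Villin promoter was used to delete part of it in intestinal epithelium. The paper reported the deletion by RT-qPCR in the intestinal tracts, with lower ileal *Tfam*, *Cyt-C* and *Atp5b* and reduced enterocyte respiration. WD provided 42% of its kcal as fat with 0.2% cholesterol. Feeding began in mice aged 8 weeks and went on for 8 weeks, and mice were killed after an overnight fast at Zeitgeber Time 3. The cells were shaken off the ileum in chelating buffer and not sorted, so the mixture of epithelial and immune cells was measured together.

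Calcium is absorbed across enterocytes in steps: an apical channel lets it in, a cytosolic binding protein carries it, and a basolateral pump moves it out. Active vitamin D binds the vitamin D receptor, which pairs with a retinoid X receptor on DNA and raises the channel, the carrier and the enzyme that destroys the hormone. Phosphate enters with sodium through one apical carrier of the Slc34 family, which in mice is strongest in the ileum, and through the Slc20 carriers found in most cells.

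Depending on the array, 56.3% to 62.3% of spots cleared the background flag and 0 were saturated. The enterocyte genes *Vil1*, *Fabp2* and *Anpep* and the ileal bile acid genes *Fabp6*, *Slc51a*, *Slc10a2* and *Slc51b* were well above background on all 18 arrays. So were *Gata4*, *Lct* and *Adh6a* of the proximal intestine, so detection alone does not tell which part of the intestine was sampled. *Ppargc1a* itself showed no fall under the iPgc1α-/- label. At its brightest probe the log2 signal was 10.94 ± 0.46 on chow, 11.38 ± 0.07 on WD with floxed alleles and 11.67 ± 0.26 in iPgc1α-/- mice (SD, n = 6 each). Whether its probes lie in the deleted part was not determined, so genotype directions here refer to the labels. Signals are log2 values after smooth quantile normalization. Differences were tested with limma over 32726 probes with Benjamini-Hochberg adjustment, and a gene was called when the adjusted p of its brightest probe was at most 0.05 and its fold change exceeded 1.5.

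**Figure D1:**
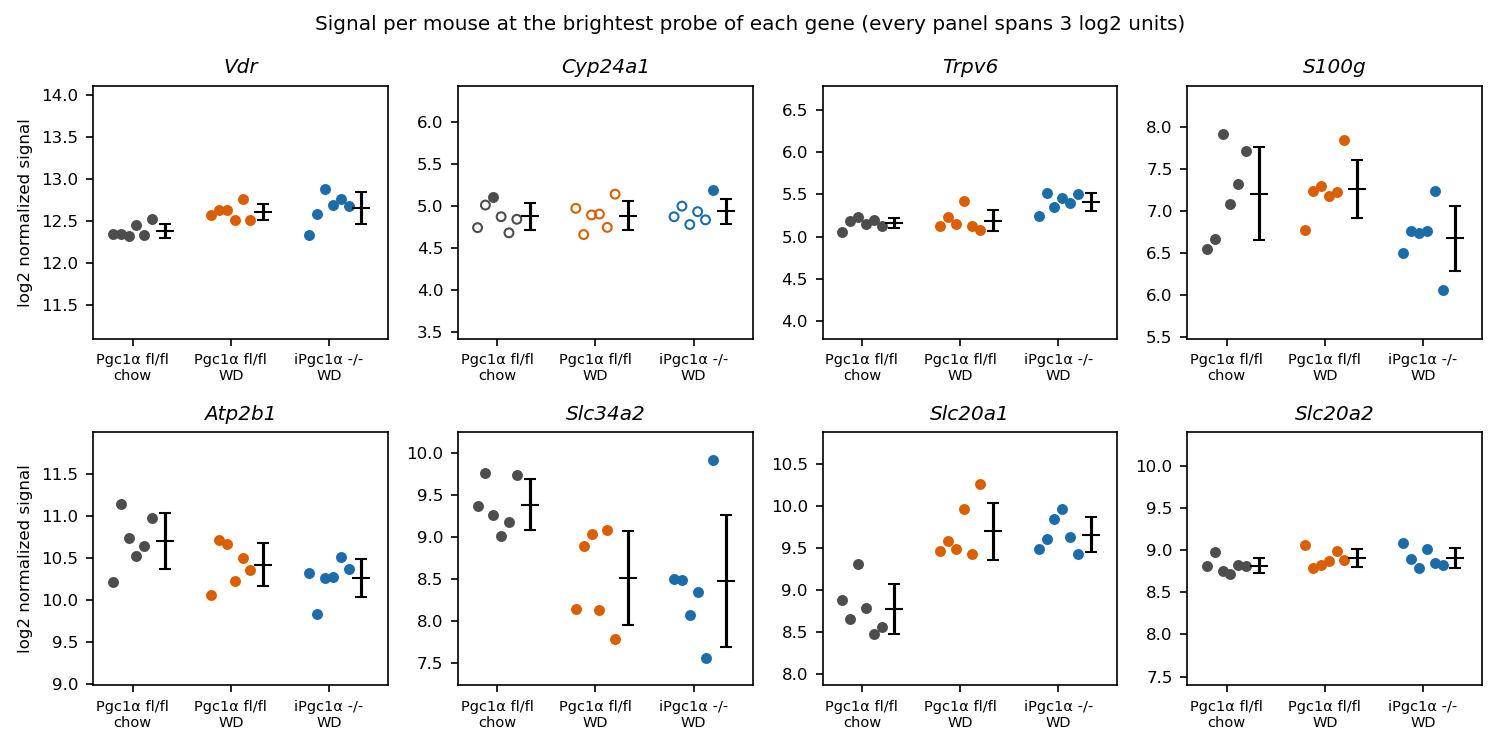
Log2 normalized signal (vertical axis) at the brightest probe of each gene, 1 point per mouse, with the mean and SD of the 6 mice beside each group. Open points were not well above background. *Slc20a1* on chow (8.48 to 9.31) lies below both WD groups, and *Cyp24a1* is open on 16 of 18 arrays.

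For *Slc20a1*, a sodium-phosphate carrier also known as PiT1, the 6 chow mice gave 8.88, 8.66, 9.31, 8.79, 8.48 and 8.56. In Pgc1α fl/fl mice on WD the log2 signals were 9.47, 9.59, 9.49, 9.96, 9.43 and 10.27. In iPgc1α-/- mice on WD they were 9.49, 9.60, 9.85, 9.96, 9.64 and 9.43. Every WD mouse of either genotype thus lay above every chow mouse, while the WD groups covered nearly the same range. The rise with WD in Pgc1α fl/fl mice was 0.92 on the log2 scale (SE 0.15, 95% CI 0.60 to 1.24, limma adjusted p = 0.000178), and the two-sided exact permutation p was 0.00216, the smallest that 6 against 6 mice can give. Groups that do not overlap were found for 10.4% of all tested genes in this comparison. The change was larger in size than that of 96.1% of tested genes. It held on each of the 3 slides, with mean differences of 0.42, 0.96 and 1.39. The probe lies at chr2:129037130-129037189 on the plus strand (mm9). The other *Slc20a1* probe, drawn from a second transcript model, was not well above background on any array, with log2 signals between 4.48 and 5.00.

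For *Slc34a2*, the apical sodium-phosphate carrier NaPi-IIb, the chow mice gave 9.36, 9.75, 9.26, 9.01, 9.18 and 9.73. In Pgc1α fl/fl mice on WD the log2 signals were 8.14, 8.89, 9.03, 8.12, 9.08 and 7.78. In iPgc1α-/- mice on WD they were 8.5, 8.49, 8.06, 8.34, 7.56 and 9.91. Chow mice were high and close together, and the WD groups were spread out, with 1 iPgc1α-/- mouse above every chow mouse. The fall with WD was -0.87 on the log2 scale (SE 0.30, 95% CI -1.49 to -0.26, limma adjusted p = 0.0378, exact permutation p = 0.00649), and the 2 highest WD values overlapped the chow range. All 3 slides showed the fall, by mean differences of -0.32, -0.87 and -1.43. This call was a narrow one. The adjusted p moved past the threshold when any 1 of 6 mice was left out, namely chow mouse 1 (0.0561), 2 (0.0731) or 6 (0.0767) or Pgc1α fl/fl WD mouse 1 (0.062), 4 (0.0632) or 6 (0.099), and under 4 of 12 other processing choices. The brightest probe lies at chr5:53461649-53461708 (mm9, plus strand). The other probe spans chr5:53429415-53449392 and so crosses at least 1 intron. It was well above background on all 18 arrays and fell by 0.47 (limma adjusted p = 0.00172, exact permutation p = 0.00433), a fold change of 0.72 that did not reach the fold threshold.

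*Slc20a2*, the second Slc20 carrier, known as PiT2, was nearly level. Its log2 signal had a lowest, median and highest value of 8.72, 8.82 and 8.98 on chow, 8.79, 8.88 and 9.07 for Pgc1α fl/fl WD mice, and 8.79, 8.87 and 9.08 in iPgc1α-/- mice on WD. The ranges overlapped, and the diet difference of 0.09 (95% CI -0.07 to 0.24, limma adjusted p = 0.429) did not pass the test.

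The 3 phosphate carriers were then compared with each other within arrays, a comparison chosen with their changes already known. Because *Slc20a1* had been called higher and *Slc34a2* lower on these same arrays, the p-values below are descriptive and not separate support. The diet change of *Slc20a1* exceeded that of *Slc20a2* by 0.84 on the log2 scale (exact permutation p = 0.00649, adjusted over 3 pairs 0.00649). It exceeded that of *Slc34a2* by 1.79 (exact permutation p = 0.00216, adjusted 0.00325). The change of *Slc20a2* exceeded that of *Slc34a2* by 0.96 (exact permutation p = 0.00216, adjusted 0.00325). Across the 18 arrays the signals of *Slc20a1* and *Slc34a2* ran opposite, with Pearson's r of -0.739, and of -0.518 once the group means were removed. These points share arrays and normalization, and the value is a description without a test.

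**Figure D2:**
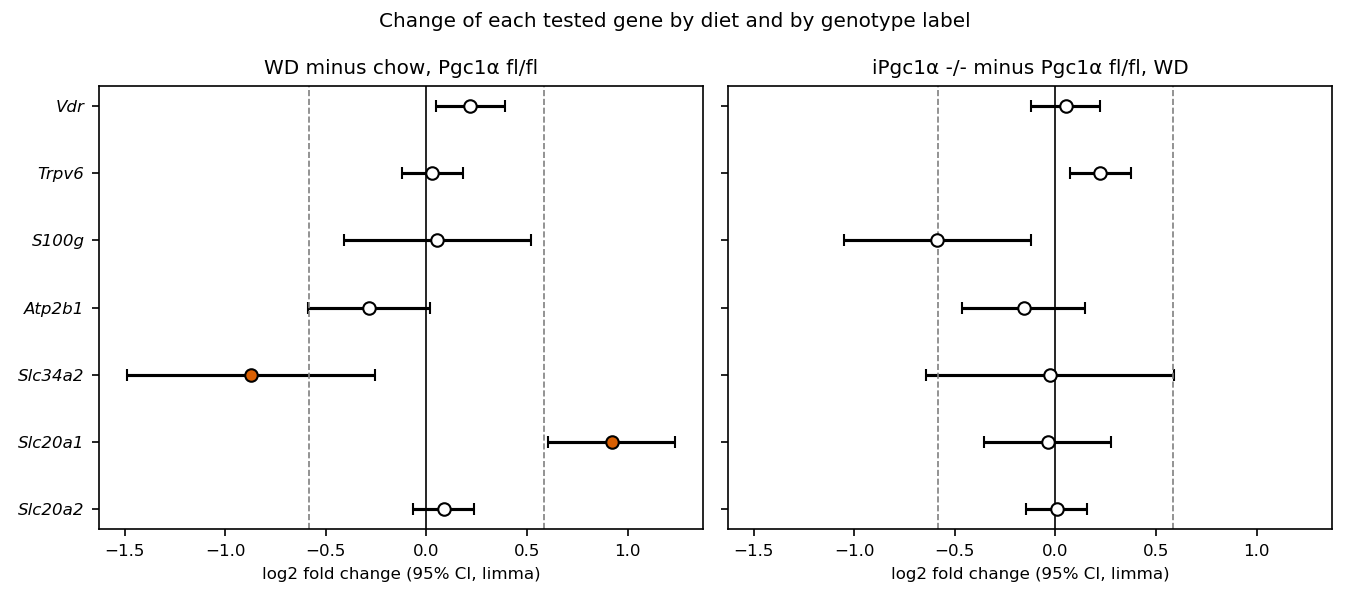
Log2 fold change with its 95% confidence interval from limma (horizontal axis) for the 7 tested genes, by diet in Pgc1α fl/fl mice (left) and by genotype label on WD (right). Filled points were called and dashed lines mark a 1.5-fold change; *Slc20a1* at 0.92 and *Slc34a2* at -0.87 are the filled points, both on the left.

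Of the 7 members that passed the filter on dim probes, 2 were called between diets, 1 higher and 1 lower, where 8.51% of the 21542 tested genes were called (3.19% higher and 5.32% lower). The median diet change of the 7 was 0.05 on the log2 scale, against -0.0009 for all tested genes. Between genotypes on WD 0 of 7 were called by limma, where 0.135% of tested genes were called (0.0603% higher and 0.0743% lower), and 2 of the 7 had an unadjusted limma p under 0.05, a level reached by 9.35% of tested genes. These 2 were *Trpv6* and *S100g*.

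*Vdr*, the receptor for active vitamin D, was bright in every mouse. Its lowest, median and highest log2 signals were 12.32, 12.34 and 12.53 on chow, 12.51, 12.60 and 12.76 for Pgc1α fl/fl WD mice, and 12.33, 12.68 and 12.88 in iPgc1α-/- mice on WD. The Pgc1α fl/fl WD mice sat at the top of the chow range or above it, and 1 iPgc1α-/- mouse sat at its bottom. The diet difference was 0.22 (SE 0.08, 95% CI 0.05 to 0.39), and it missed the threshold at this probe (limma adjusted p = 0.0625, exact permutation p = 0.00649). Across 12 processing alternatives the limma adjusted p of *Vdr* ran from 0.00614 to 0.0813. The difference was then 0.22 to 0.37, below 1.5-fold throughout. A second *Vdr* probe gave 0.29 with a limma adjusted p of 0.0345, below 1.5-fold as well. Between genotypes the difference was 0.05 (95% CI -0.12 to 0.22, limma adjusted p = 0.864).

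*Cyp24a1*, the enzyme that inactivates vitamin D and a steep target of its receptor, was near the floor of the array. Its probe was well above background on 1 chow array, 0 Pgc1α fl/fl WD arrays and 1 iPgc1α-/- WD array. The log2 signals ran from 4.68 to 5.10, from 4.66 to 5.14 and from 4.78 to 5.19 in these groups, all overlapping, and the gene was not tested. Also too dim to test were *Cyp27b1*, which makes the active hormone (well above background on 1 of 18 arrays), *Calb1*, the larger calbindin of kidney (0 of 18), and *Trpv5*, the renal calcium channel (0 of 18).

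*Trpv6*, the apical calcium channel, was dim but well above background on all 18 arrays, with raw median signals of 29 to 53 intensity units. Chow mice gave log2 signals of 5.06, 5.18, 5.24, 5.15, 5.20 and 5.13. Pgc1α fl/fl mice on WD gave 5.13, 5.23, 5.15, 5.43, 5.12 and 5.08, and iPgc1α-/- mice on WD gave 5.24, 5.52, 5.35, 5.45, 5.4 and 5.51. The Pgc1α fl/fl mice on either diet covered much the same range, and the iPgc1α-/- mice lay higher, overlapping it through 1 high Pgc1α fl/fl mouse. The diet difference was 0.03 (95% CI -0.12 to 0.18, limma adjusted p = 0.807). The genotype difference was 0.22 (95% CI 0.07 to 0.37), with an exact permutation p of 0.013 and a limma adjusted p of 0.335, so it did not pass the test across probes. Within slides it was 0.28, 0.34 and 0.04. A fold change this near background understates any true change.

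*S100g* encodes calbindin-D9k, the cytosolic calcium carrier of the enterocyte. Chow mice gave log2 signals of 6.55, 6.67, 7.91, 7.08, 7.31 and 7.71. Pgc1α fl/fl mice on WD gave 6.78, 7.24, 7.30, 7.18, 7.22 and 7.84, and iPgc1α-/- mice on WD gave 6.49, 6.75, 6.73, 6.76, 7.24 and 6.05. The iPgc1α-/- mice were low, 5 of 6 of them below every Pgc1α fl/fl WD mouse, and 2 of them below every chow mouse as well, while chow mice were spread widely. The genotype difference was -0.59 (SE 0.22, 95% CI -1.05 to -0.12), larger in size than that of 99% of tested genes, with an exact permutation p of 0.0152 but a limma adjusted p of 0.419, so it did not pass. It was negative on each slide, at -0.24, -0.63 and -0.90. The diet difference was 0.05 (95% CI -0.41 to 0.52, limma adjusted p = 0.89).

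*Atp2b1*, the basolateral calcium pump PMCA1, had a lowest, median and highest log2 signal of 10.22, 10.69 and 11.15 on chow, 10.06, 10.43 and 10.71 for Pgc1α fl/fl WD mice, and 9.84, 10.30 and 10.52 in iPgc1α-/- mice on WD. The groups overlapped widely. The diet difference was -0.29 (95% CI -0.59 to 0.02, limma adjusted p = 0.17) and the genotype difference -0.16 (95% CI -0.46 to 0.15, limma adjusted p = 0.747). The second probe gave a diet difference of -0.31 (limma adjusted p = 0.177) and a genotype difference of 0.02 (limma adjusted p = 0.976), against -0.16 at the first. Between genotypes the 3 phosphate carriers did not pass the test either, with limma adjusted p of 0.951 to 0.988. Their differences were -0.04 for *Slc20a1* (95% CI -0.36 to 0.28), -0.03 for *Slc34a2* (95% CI -0.65 to 0.59) and 0.01 for *Slc20a2* (95% CI -0.15 to 0.16), and the sign of each turned under some alternatives.

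**Figure D3:**
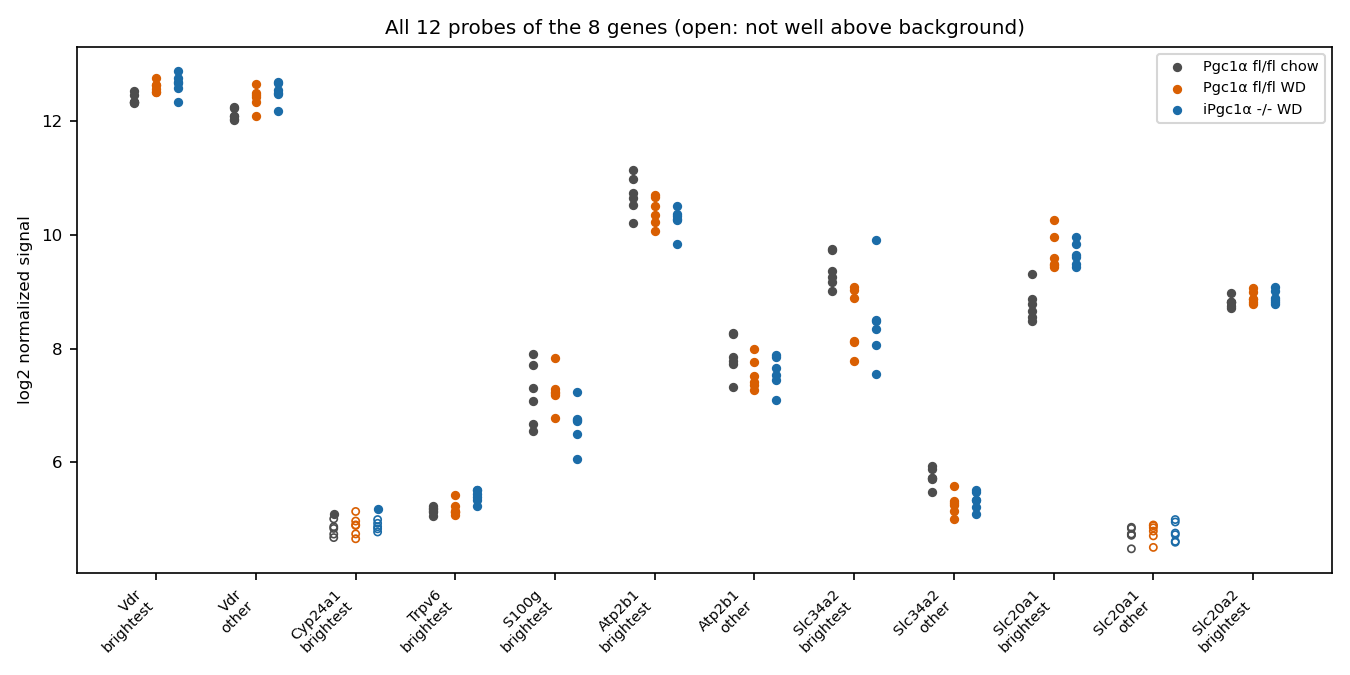
Log2 normalized signal (vertical axis) of each mouse at all 12 probes of the 8 genes, in the 3 groups. Open points were not well above background, which covers 16 of 18 arrays for *Cyp24a1* and all 18 for the other *Slc20a1* probe; levels of different probes are not comparable with each other.

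The stretches of 250 bases before the start site are shown for the carriers that changed and for the calcium genes held to be direct targets of the vitamin D receptor. Sequences are from RefSeq on GRCm38.p6, and windows were found for 6 of the 8 genes. Capitals mark hexamers known as nuclear receptor sites on either strand, with AGGTCA as the common form, AGTTCA as a close variant, GGGTCA as another and GGTTCA as the last one searched, and the E-box, which reads CACGTG. The windows are chr2:129198523-129198772 (plus strand) for *Slc20a1*, chr5:53049103-53049352 (plus) for *Slc34a2*, chr6:41636406-41636655 (minus) for *Trpv6* and chrX:162964600-162964849 (minus) for *S100g*.
Slc20a1: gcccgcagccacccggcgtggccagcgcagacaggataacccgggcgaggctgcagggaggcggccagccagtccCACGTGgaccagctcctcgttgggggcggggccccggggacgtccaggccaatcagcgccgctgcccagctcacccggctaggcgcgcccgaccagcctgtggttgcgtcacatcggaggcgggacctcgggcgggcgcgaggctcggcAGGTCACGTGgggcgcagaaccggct
Slc34a2: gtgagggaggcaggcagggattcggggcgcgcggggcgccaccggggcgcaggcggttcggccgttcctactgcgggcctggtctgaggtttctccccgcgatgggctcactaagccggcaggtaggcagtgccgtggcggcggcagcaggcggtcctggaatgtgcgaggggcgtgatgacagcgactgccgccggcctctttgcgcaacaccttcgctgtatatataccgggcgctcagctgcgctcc
Trpv6: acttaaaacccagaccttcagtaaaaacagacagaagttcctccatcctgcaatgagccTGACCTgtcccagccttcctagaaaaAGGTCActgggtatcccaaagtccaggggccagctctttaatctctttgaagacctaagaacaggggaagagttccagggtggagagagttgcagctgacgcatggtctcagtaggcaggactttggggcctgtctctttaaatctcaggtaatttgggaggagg
S100g: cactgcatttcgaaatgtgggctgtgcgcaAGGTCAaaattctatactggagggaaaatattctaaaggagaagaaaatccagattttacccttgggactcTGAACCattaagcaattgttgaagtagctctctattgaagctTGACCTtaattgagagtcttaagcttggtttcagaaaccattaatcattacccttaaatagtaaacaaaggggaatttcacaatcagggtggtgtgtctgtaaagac

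At least 1 hexamer was present in 38.6% of 32851 mouse windows. *S100g* held 3, *Trpv6* 2 and *Vdr* 1, *Slc20a1* held 1 in each of its 2 windows, and no match was found for *Slc34a2* or *Atp2b1*. The hexamer of *Slc20a1* overlaps the second of 2 E-boxes, a motif present in 6.02% of all windows. Pairs of hexamers in one orientation with 3 bases between them (0.0396% of windows) or 1 base between them (0.164%) were not found in any of the 6 genes, and neither were TTTATA or TTTATG (20.9%). TATAAA (12.4%) is TTTATA read on the other strand, so its absence is no separate result. The window of *Slc20a1* shown was 75.2% G or C and that of *S100g* 38.4%, against a median of 52.4% over all windows. These matches describe letters within 250 bases and say nothing of binding.

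Around the 8 genes, 69 further genes of the pathway were on the array in 6 lists, and 52 passed the filter. Between diets 5 of the 52 were called higher and 4 lower, with a median change of 0.02. Over all tested genes 3.19% were called higher and 5.32% lower. Between genotypes limma called 0, against 0.135% of all tested genes. An unadjusted limma p under 0.05 was found for 5 of the 52, and for 9.35% of all tested genes. In the list of phosphate transport, scaffolds and regulators (16 tested), 2 rose and 1 fell, and the median change was 0.22. *Slc34a3*, the renal phosphate carrier NaPi-IIc, rose by 0.63 (7.73 ± 0.36 on chow, 8.35 ± 0.13 on WD, SD, n = 6, limma adjusted p = 0.00327), a call lost without chow mouse 3 or 4 or Pgc1α fl/fl WD mouse 5 (0.51 to 0.57), and under 2 of 12 processing alternatives, normexp (0.58) and averaged probes (0.46). *Alpi*, intestinal alkaline phosphatase, which frees phosphate at the brush border, rose by 0.90 (limma adjusted p = 0.000191), with no overlap between the groups. *Slc9a3*, the sodium-proton exchanger NHE3 of the same membrane, fell by 0.94 (limma adjusted p = 0.00342). *Xpr1*, the phosphate exporter, differed by 0.49 (limma adjusted p = 0.000307) and stayed below 1.5-fold, except with the processed signal, which gave a call at 0.63, while *Slc34a1*, the chief renal phosphate carrier, was near background at 5.54 ± 0.17 on chow and 5.56 ± 0.19 in Pgc1α fl/fl mice on WD (SD, n = 6), a difference of 0.02 (limma adjusted p = 0.936).

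Of the 6 tested genes listed as other intestinal targets of the vitamin D receptor, 3 fell and 1 rose with WD. Over all tested genes 5.32% were called lower and 3.19% higher. The median change of the 6 was -0.35. *Cldn2*, a claudin that forms a paracellular cation channel, fell by 0.95 (9.87 ± 0.48 on chow, 8.92 ± 0.42 on WD, SD, n = 6, limma adjusted p = 0.00242). *Cyp3a11*, a drug-metabolising cytochrome, fell by 1.16 (limma adjusted p = 0.0386), and *Slc30a10*, a manganese exporter, fell by 0.60 (limma adjusted p = 0.0237). *Abcb1a*, the efflux pump P-glycoprotein, rose by 0.75 (limma adjusted p = 0.00331). The call of *Cyp3a11* was lost without chow mouse 2, 3, 5 or 6 or Pgc1α fl/fl WD mouse 1 or 6 (highest adjusted p = 0.1), and that of *Slc30a10* without chow mouse 2, 3 or 5 or Pgc1α fl/fl WD mouse 1 or 6 (highest adjusted p = 0.0626). Of 12 processing alternatives, 6 lost the call of *Cyp3a11* (highest adjusted p = 0.0758) and 4 that of *Slc30a10*, which then stayed below 1.5-fold (-0.57 to -0.53).

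Where 3.19% of all tested genes were called higher, 1 of 15 tested genes of vitamin D activation, carriage and receptor partners rose. It was *Cubn*, which encodes cubilin, the ileal receptor for vitamin B12 bound to intrinsic factor and, in kidney, for the vitamin D carrier. *Cubn* went from 13.67 ± 0.43 on chow to 15.01 ± 0.15 on WD (SD, n = 6), a rise of 1.33 (limma adjusted p = 4.6e-06). *Rxra*, the partner of the vitamin D receptor on DNA, was at 14.05 ± 0.06, 14.16 ± 0.05 and 14.23 ± 0.16 in chow, Pgc1α fl/fl WD and iPgc1α-/- WD mice (diet difference 0.11, limma adjusted p = 0.317). Among the 5 tested hormone receptors, *Ghr*, the growth hormone receptor, rose 2.14-fold (limma adjusted p = 9.79e-07). In the list of calcium transport and binding 0 of 9 tested genes were called by limma, against 8.51% of all tested genes. Their changes ran from -0.45 to 0.24. A limma adjusted p under 0.05 without the fold threshold was reached by 2 of the 9, and by 5307 of all 21542 tested genes. These 2 were lower on WD and short of 1.5-fold. They were *Atp2a3* (-0.45, limma adjusted p = 0.00256) and *Stim1* (-0.33, limma adjusted p = 0.0114), a calcium pump and a calcium sensor of the endoplasmic reticulum. Both are named here after their values were seen. Of the 3 claudins that pass cations between cells, *Cldn2* was the 1 that was called. *Cldn15*, named after its value was seen, went the other way by 0.54 with no overlap between groups (limma adjusted p = 0.00201) and stayed short of 1.5-fold at 1.45.

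**Figure D4:**
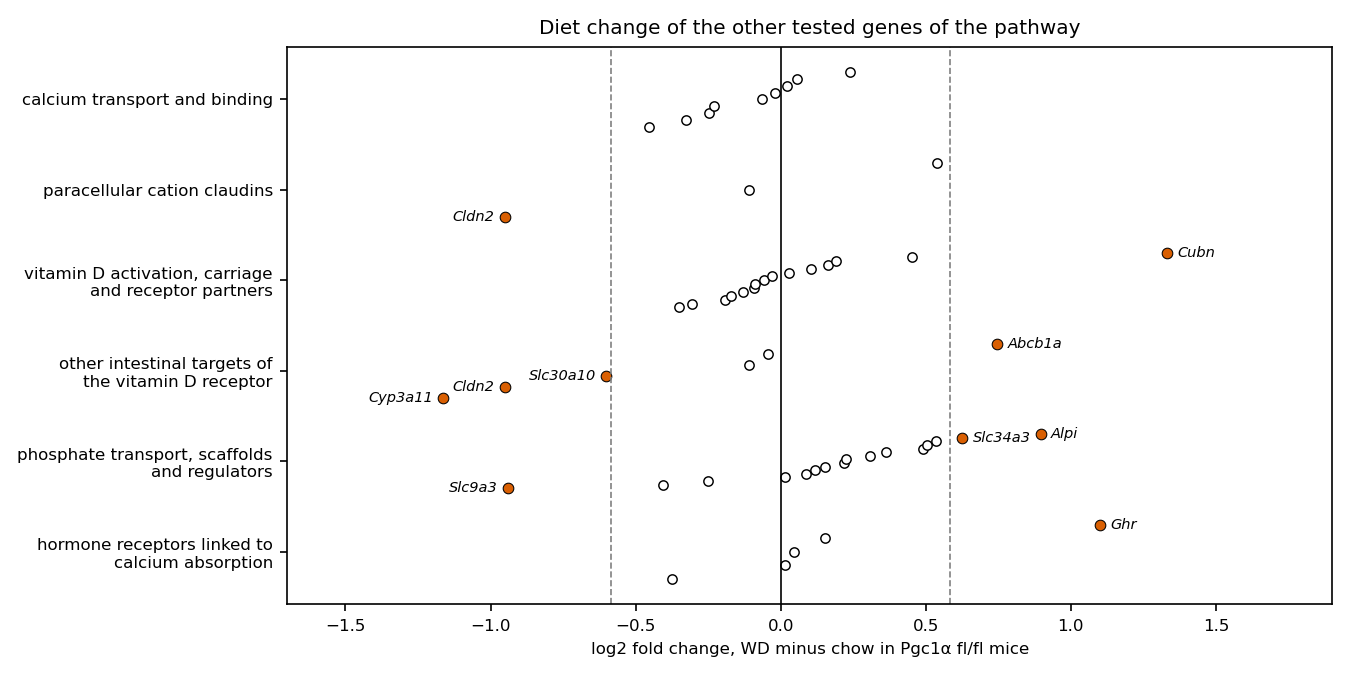
Log2 fold change with WD in Pgc1α fl/fl mice (horizontal axis) of the other tested genes, 1 point per gene, by list; *Cldn2* and *Cldn12* stand in 2 lists. Filled, named points were called (5 genes higher and 4 lower) and dashed lines mark a 1.5-fold change.

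For each member above background on all arrays, the 3 genes with the most similar signal over the 18 arrays were listed by Pearson's r, as a description. *Slc20a1* ran with *Apcdd1* (0.954), the malic enzyme gene *Me1* (0.936) and *Apoh* (0.896), and *Slc34a2* with *Casp8* (0.865), *Ttc22* (0.848) and *Slc44a4* (0.843). For *Vdr* they were *Fut8* (0.885), *Heatr6* (0.879) and *Thrb* (0.864), and for *Atp2b1* *Abhd3* (0.887), *Agps* (0.886) and *Nipal1* (0.852). *S100g* ran with *Cox7c* (0.803), *Stk33* (0.76) and *Dlat* (0.747), *Trpv6* with *Hexa* (0.872), *Il17ra* (0.861) and *Lzic* (0.858), and *Slc20a2* with *Serpine2* (0.757), *Sall2* (0.749) and *Ccpg1* (0.73). With group means removed, *Slc20a1* and *Apcdd1* still had an r of 0.853.

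Marker RNA of several cell types also moved with diet. All 5 T cell markers and 3 of 4 B and plasma cell markers were called lower on WD. Of all tested genes 5.32% were called lower and 3.19% higher. The mean log2 level per mouse of the T cell list was 9.81 to 11.4 on chow and 8.81 to 9.54 on WD, and 9.07 to 9.79 in iPgc1α-/- mice on WD. For the B and plasma cell list it was 7.28 to 8.74 on chow and 5.29 to 7.31 on WD, and 5.98 to 7.0 in iPgc1α-/- mice on WD. Of 4 goblet markers 3 were called lower, and *Tff3*, at -0.54 (limma adjusted p = 0.0098), stayed short of 1.5-fold. The ileal bile acid transporters *Slc10a2* and *Slc51b* fell by 1.07 and 0.94, and of 4 proximal markers *Lct* alone was called, with a rise of 1.05. Called lower were also *Chga* of 4 enteroendocrine, *Top2a* of 6 crypt, *Mmp7* of 3 Paneth and *Trpm5* of 2 tuft markers tested. Among 5 upper villus markers *Nt5e* was called lower and *Apoa4* higher. Of the enterocyte list only *Alpi* (1 of 7) was called, higher on WD. The mean log2 level per mouse of these 7 genes was 15.2 to 15.8 on chow and 15.6 to 16.0 on WD, and 15.8 to 16.2 in iPgc1α-/- mice on WD. In such a mixture fewer cells of a type and less RNA per cell cannot be told apart, and the part of these shifts in the changes of *Slc20a1* and *Slc34a2* was not tested. Between genotypes limma called 0 of 57 tested markers, against 0.135% of all tested genes. An unadjusted limma p under 0.05 was found for 7 of them, and for 9.35% of all tested genes.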

How the data were processed

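Agilent SurePrint G3 Mouse GE v2 arrays of 18 mice were used, with groups and replicate numbers from the sample labels. The authors deposited, per array, spot intensity values read by Feature Extraction 10.10.1.1 (median, mean, local background and processed signal, with flags), not normalized between arrays. The value table that the authors deposited, on a log2 scale and with 33095 probes, served only as an alternative. Per the supplementary methods its values were filtered, corrected for washing bath and labelling serial, and normalized with qsmooth. The batch of each array is not given in the sources used here, so that correction was not repeated, and a part played by these batches was not tested. Each of the 3 slides held 2 arrays of every group.

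Control spots and those marked as outliers (46 to 153 on an array) were dropped and spots of a probe averaged. A probe entered the test if at least 5 of the 6 arrays of some group measured it well above background. Smooth quantile normalization was rewritten in R 4.3.3 after qsmooth (window 0.05), applied to the log2 median signal, and the result fitted with limma 3.58.1 in one model of the 3 groups. P-values were adjusted over 32726 probes (21542 gene names). Exact permutation tests were two-sided. Array number limits the precision: log2 fold changes had a standard error of 0.105 at the median. Reading used version 1.17.8 of data.table and version 2.3.3 of pandas, and matplotlib 3.10.9 under Python 3.11.15 made the plots. In tests on simulated data of 32638 probes, 86% of probes changed by 0.75 on the log2 scale and 98% of those changed by 1 were recovered for diet, and 90% and 100% for genotype. The simulated noise was independent between probes, and 50 probes were changed by each amount, unlike the real data. Recovery was pooled over probes and does not give the power for a single member with a wider spread, such as *Slc34a2* (SE 0.30).

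Genes named are the 8 members, pathway genes called in either contrast, *Calb1*, *Cyp27b1*, *Rxra*, *Cldn2*, *Trpv5*, *Slc34a1* and *Xpr1*, cell type markers, and the 3 genes most alike each member. Members, lists and tests were chosen with earlier results of these data known. Probe positions come from the scanner files (mm9). Alternatives were the processed or median signal scaled to the 75th percentile, normexp (offset 50), quantile normalization, the authors' log2 values, no filter or a strict filter, slide or replicate block, a fit of only the 2 groups compared, trended and robust variances, no fold threshold, averaged probes and each array left out.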

Additional observations from a re-analysis of the deposited data

How the results depend on the processing

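The rise of *Slc20a1* with WD kept its call under all 12 processing alternatives (0.87 to 0.99 on the log2 scale) and in the 18 fits that left out 1 mouse (0.82 to 1.0). The fall of *Slc34a2* kept its direction in all of these (-1.01 to -0.67) but lost its call with the processed signal scaled to the 75th percentile (adjusted p = 0.065), with normexp and quantile normalization (0.0505), without the filter (0.0533) and with a trended and robust variance (0.0505), so that 1 member instead of 2 was called between diets. Leaving out 1 mouse gave 1 to 2 called members between diets and 0 between genotypes. With no fold threshold 5307 genes were called between diets and 48 between genotypes. Leaving out 1 mouse gave 19 to 40 genes between genotypes, with 19 without iPgc1α-/- mouse 3 and without Pgc1α fl/fl WD mouse 1 or 4. Differences near 0 changed sign. For *Slc20a2* between genotypes the value was -0.0035 with quantile normalization, -0.0029 after scaling median signals to the 75th percentile, -0.003 in the authors' values, and -0.0262 to 0.0486 with 1 mouse left out. For *Slc34a2* between genotypes it was 0.0173 with averaged probes and -0.31 to 0.14 with 1 mouse left out, and for *Slc20a1* -0.1025 to 0.0673. Between diets such fits gave -0.0773 to 0.17 for *S100g*, -0.0235 to 0.0591 for *Trpv6* and -0.0458 to 0.0561 for *Slc34a1*. The cause was not tested. Signal near background limits *Trpv6*, *Slc34a1* and *Cyp24a1*.

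Whether replicate numbers pair the mice was not settled. Same-numbered deviations correlated from -0.218 to 0.349, with a median of 0.103, and 9 of 18 exceeded 0.1. Differently numbered ones had a median of -0.033. With the replicate block, 2 members were called between diets and 0 between genotypes, with adjusted p of 0.000421 for *Slc20a1* and 0.0488 for *Slc34a2*, and 1847 and 25 genes in all. The block changed no call of the members or of the 12 pathway genes refitted with it.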
